A study of Mus musculus with 2 samples.

Results

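Chemokines and their receptors were followed as 55 genes among the 19059 gene rows that the 8 deposited matrices share. Every row was taken whose symbol is Ccl, Cxcl, Ccr, Cxcr or Xcr followed by a number and at most 1 letter, together with Cx3cl1, Xcl1 and the atypical receptors Ackr1 to Ackr4. Each row with such a symbol was taken whatever its level. They comprised 20 CC ligands, 12 CXC ligands, 10 CC receptors, 6 CXC receptors, 4 atypical receptors, the CX3C ligand Cx3cl1, the XC ligand Xcl1 and its receptor Xcr1.

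The nuclei came from sarcomas of dFLEx CDS mice, which carry a silent CIC::DUX4 fusion gene that Cre and FLPE recombinase switch on. Plasmids for both enzymes were electroporated into the hind limb, so the fusion is switched on only in cells that took up both. The untreated group held 4 tumors from mice labelled dFLEx CDS +/-, and the Minnelide group held 4 tumors from dFLEx CDS mice dosed at 0.42 mg/kg each day over 21 days, with no genotype in their labels. Minnelide releases triptolide, a compound that blocks the start of transcription. Single-nucleus RNA sequencing with a 3' kit counted unique molecular identifiers (UMIs), 1 per captured RNA molecule, for each gene in each nucleus. Each group was deposited as 1 sample with 4 matrices, so tumors served as replicates, and any difference in handling between the samples cannot be told apart from the treatment.

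Chemokines are small secreted proteins that bind receptors coupled to inhibitory G proteins and steer the movement of leukocytes. CC and CXC ligands are named for the spacing of their first cysteines, and most receptors accept several ligands of their own class. Atypical receptors bind chemokines without activating G proteins and remove, store or transport them. In a sarcoma, ligands of CCR2 are known for drawing monocytes and macrophages, those of CXCR2 neutrophils, those of CXCR3 T and NK cells, and those of CCR7 and CXCR5 the cells of lymphoid tissue.

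After removal of damaged nuclei and doublets, 59907 nuclei remained, 4470 to 10368 per tumor, with a median of 855 UMIs per nucleus in untreated tumor 4 and 2308 to 3884 in the other tumors. Levels are given as CPM, the UMIs of a gene in the summed nuclei of a tumor, scaled to a fixed total of UMIs. Clusters were named from fixed markers, none of which is a member, and members took no part in the clustering. The names were tumor-like (37572 nuclei), myocyte-like (7324), fibroblast-like (6198), endothelial-like (3475), macrophage-like (1495), pericyte-like (812), osteoclast-like (701) and T/NK-like (65), and 2265 nuclei stayed unnamed. All 8 markers of the tumor-like class, which are targets of the fusion, were detected, and their summed level in all retained nuclei was 8904 to 19119 CPM in the 8 tumors.

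Untreated tumor 1 stood apart from the other tumors. It held 1972 of the unnamed nuclei and 62 of the T/NK-like nuclei, its tumor-like share was 18.7%, against 40.3% to 85.1% in the other 7, and its nuclei formed clusters nearly of their own. One fibroblast-like cluster, for example, took 1017 of its 1027 nuclei from this tumor, and most tumor-like clusters likewise came mainly from 1 tumor. Counts, sums and differences between the groups that turn on untreated tumor 1 are therefore given without it too. Tumors are numbered as they are listed. Bases 8 and 9 of the barcodes split the matrices of each group into 4 sets, and only same-numbered matrices, which use the same set, shared barcodes (132, 49, 111 and 63 for numbers 1 to 4).

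Promoters of 4 members are shown, picked because they hold matches to elements of the interferon and NF-kB pathways. These pathways are known to switch chemokine genes on. Each of the 4 genes had an unadjusted edgeR p under 0.05 in a comparison between the groups. Ackr3, Ccl8, Ccr1 and Cxcl9 were also under that p in all retained nuclei, and their listed promoters held no such match. Each sequence runs from 250 bases before to 50 bases after the RefSeq start in GRCm38.p6, 5′ to 3′ on the strand of the gene, and capitals mark matches to the core of the interferon-stimulated response element (GAAA, any 2 bases, GAAA) or to the NF-kB consensus.
Cxcl10 (chr5:92348840-92349139, minus strand): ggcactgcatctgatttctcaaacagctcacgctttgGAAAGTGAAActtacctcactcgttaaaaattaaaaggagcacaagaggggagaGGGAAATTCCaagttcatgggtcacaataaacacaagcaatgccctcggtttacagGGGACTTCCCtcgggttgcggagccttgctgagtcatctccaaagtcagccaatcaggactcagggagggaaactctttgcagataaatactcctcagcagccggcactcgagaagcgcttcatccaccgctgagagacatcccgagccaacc
Cxcl1 (chr5:90890995-90891294, plus strand): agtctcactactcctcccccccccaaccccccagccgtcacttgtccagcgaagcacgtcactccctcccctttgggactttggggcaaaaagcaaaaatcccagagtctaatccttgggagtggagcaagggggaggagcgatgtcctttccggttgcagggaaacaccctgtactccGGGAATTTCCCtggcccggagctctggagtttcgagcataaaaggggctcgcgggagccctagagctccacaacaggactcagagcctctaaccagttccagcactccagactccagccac
Ccl9 (chr11:83578587-83578886, minus strand): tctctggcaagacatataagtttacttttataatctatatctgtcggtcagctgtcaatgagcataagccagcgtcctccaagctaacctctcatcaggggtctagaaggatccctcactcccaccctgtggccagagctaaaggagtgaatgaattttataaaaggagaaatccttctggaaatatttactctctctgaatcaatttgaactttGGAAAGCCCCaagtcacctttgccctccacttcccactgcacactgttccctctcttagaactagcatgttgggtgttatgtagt
Ackr2 (chr9:121898105-121898404, plus strand): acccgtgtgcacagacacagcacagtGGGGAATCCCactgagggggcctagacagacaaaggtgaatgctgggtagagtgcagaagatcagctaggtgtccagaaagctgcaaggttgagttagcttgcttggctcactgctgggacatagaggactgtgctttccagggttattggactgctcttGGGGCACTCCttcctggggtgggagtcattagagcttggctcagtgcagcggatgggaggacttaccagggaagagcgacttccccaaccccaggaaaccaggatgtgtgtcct
The interferon match of Cxcl10 began 213 bases before the start and its NF-kB matches 159 and 103 bases before it. The 2 matches of Cxcl1, at 71 and 70 bases before the start, overlap each other, Ccl9 had its match at 35 bases before the start, and those of Ackr2 lay at 224 and 64 bases. Promoters were listed for 41 of the 55 members. An NF-kB match on either strand was present in 6 of 25 ligand promoters (24%: Ccl9, Ccl20, Cxcl1, Cxcl2, Cxcl3 and Cxcl10), in 3 of 18 receptor promoters (Ackr2, Ccr3 and Ccr6) and in 4.51% of all 32851 promoters. The interferon core was found in 3 ligand promoters (Ccl19, Cxcl10 and Cxcl14), in 0 receptor promoters and in 3.44% of all promoters. TTCNNNGAA, the core of the gamma-interferon-activated site, was found in 2 ligand promoters (Ccl17 and Cxcl14), 1 receptor promoter (Ccr6) and 8.30% of all promoters, and TATAAA in 9 ligand promoters, 4 receptor promoters and 13.6% of all. A match describes the letters of these windows, not a bound site.

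Every member had at least 1 UMI in the retained nuclei. Over the 8 tumors, 17 members reached 1000 UMIs, 38 reached 100 and 17 stayed below 100, among them Ccl26 with 1 UMI, Cxcr1 with 3 and Ccr8 with 7. The summed level of the 55 members was 860, 345, 248 and 232 CPM in untreated tumors 1 to 4 and 221, 225, 237 and 216 CPM in Minnelide tumors 1 to 4. Untreated tumor 1 was far above the rest, and untreated tumor 4 lay inside the Minnelide range. CC ligands summed to 133 ± 57.5 CPM without and 98.7 ± 8.23 CPM with Minnelide, CXC ligands to 97.6 ± 82.8 and 45.0 ± 2.78 CPM, CC receptors to 30.4 ± 13.1 and 15.8 ± 1.57 CPM, and CXC receptors to 14.4 ± 10.6 and 7.68 ± 1.89 CPM (mean ± SD, n = 4 in each group). Without untreated tumor 1 the untreated means were 105, 57.5, 25.1 and 9.24 CPM, in the same order. In sums over all retained nuclei, fewer cells of a type and less RNA per cell cannot be told apart.

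**Figure D1:**
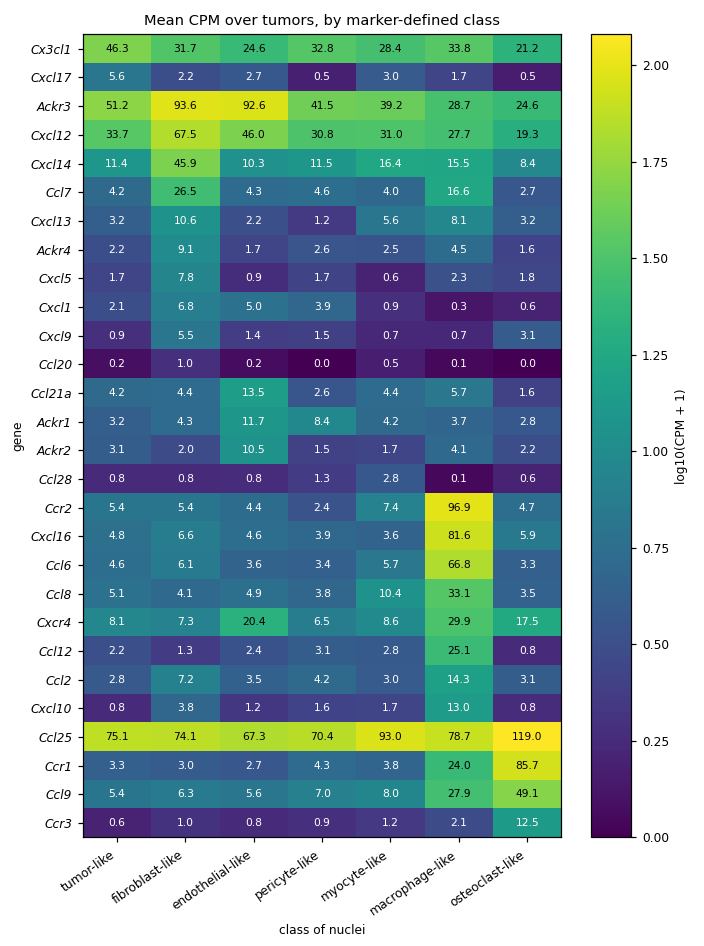
Mean CPM over tumors of 28 members (rows) in 7 marker-defined classes (columns), printed in each cell and colored by log10(CPM + 1). Ccr2 (96.9 CPM) and Cxcl16 (81.6) are highest in macrophage-like nuclei, Ccr1 (85.7) and Ccl9 (49.1) in osteoclast-like nuclei and Cxcl12 (67.5) in fibroblast-like nuclei.

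Members had their highest level in different classes. Of the 29 members with at least 20 UMIs in the class where their mean level was highest, 10 had it in fibroblast-like nuclei, 9 in macrophage-like, 4 in osteoclast-like, 3 in endothelial-like, 2 in tumor-like and 1 in myocyte-like nuclei. A class is built from clusters of the same nuclei, so these levels describe the classes and carry no test.

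Ccr2 and Cxcl16 had by far their highest CPM in macrophage-like nuclei, but most of their UMIs lay in other, larger classes. Macrophage-like nuclei held 354 of the 1787 UMIs of Ccr2 and 324 of the 1759 UMIs of Cxcl16. Ccr2, the receptor for Ccl2 that brings monocytes out of the blood, stood at 90.0, 92.2, 53.8 and 41.4 CPM without and 65.0, 72.4, 178 and 183 CPM with Minnelide in macrophage-like nuclei, and was above its next class (7.38 CPM) in 8 of 8 tumors. Cxcl16, a membrane-bound ligand of Cxcr6, averaged 81.6 ± 28.6 CPM (SD, n = 8) in macrophage-like nuclei and was above every other class mean, the next being 6.56 CPM in fibroblast-like nuclei. Neither Ccr2 nor Cxcl16 separated the groups in this class. Cxcl16 overlaps Med11 and Zmynd15 on the opposite strand, and the strand setting of the counting is not given in the sources used here.

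Ccr1, which binds Ccl3, Ccl5, Ccl6, Ccl7 and Ccl9 and is known in osteoclasts and their precursors, was highest in osteoclast-like nuclei in 8 of 8 tumors, at 111, 108, 85.3 and 81.3 CPM without and 96.3, 85.0, 55.9 and 62.5 CPM with Minnelide. The second class was macrophage-like, with a mean of 24.0 CPM. Ccl9, a Ccr1 ligand made by myeloid cells and osteoclasts, averaged 49.1 ± 30.2 CPM in osteoclast-like and 27.9 ± 30.8 CPM in macrophage-like nuclei (SD, n = 8), so its order over these classes lies within the spread. Ccr3, the eotaxin receptor, had its highest mean in osteoclast-like nuclei too, at 12.5 ± 10.6 CPM on 43 UMIs. Ccl25 was highest there by its mean of 119 ± 25.2 CPM, but its class means span only 67.3 to 119 CPM.

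Among CC ligands, Ccl2, Ccl6, Ccl8 and Ccl12 were highest in macrophage-like and Ccl7 in fibroblast-like nuclei. Ccl6, a Ccr1 ligand of myeloid cells, reached 356 CPM in the macrophage-like nuclei of untreated tumor 1 and 0 to 82.8 CPM in the other 7 tumors. Ccl8 and Ccl12, monocyte attractants, averaged 33.1 ± 38.6 and 25.1 ± 27.0 CPM in macrophage-like nuclei, and Ccl2 averaged 14.3 ± 16.5 CPM, each with a spread as large as its mean (SD, n = 8). Ccl7, another Ccr2 ligand, was highest in fibroblast-like nuclei, at 26.5 ± 15.3 CPM, above macrophage-like nuclei in 7 of 8 tumors.

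Cxcl12 was highest in fibroblast-like nuclei by its mean, and its receptor Cxcr4 in macrophage-like nuclei. Cxcl12, the ligand that retains stem cells and lymphocytes through Cxcr4, was measured in fibroblast-like nuclei at 297, 51.9, 31.7 and 11.8 CPM without and 43.4, 32.2, 43.2 and 28.7 CPM with Minnelide. Cxcr4, its signaling receptor, averaged 29.9 ± 14.6 CPM in macrophage-like and 20.4 ± 9.53 CPM in endothelial-like nuclei, which do not differ beyond their spread. Ackr3, which binds Cxcl12 and removes it, had nearly equal means in fibroblast-like (93.6 ± 56.0 CPM) and endothelial-like nuclei (92.6 ± 47.3 CPM). Cxcl14, a stromal and epithelial ligand, averaged 45.9 ± 32.8 CPM in fibroblast-like nuclei and was above the next class in 7 of 8 tumors. Over all retained nuclei Cxcl12 was 43.9 ± 45.2 CPM without and 22.9 ± 7.21 CPM with Minnelide, a log2 difference of -0.71 ± 0.61 (SE) that did not pass edgeR's quasi-likelihood test (Benjamini-Hochberg adjusted p = 0.687).

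Cx3cl1, the membrane-anchored ligand of Cx3cr1, was the only member above 40 CPM whose highest class mean was tumor-like. That mean was 46.3 CPM, and macrophage-like nuclei came next at 33.8 CPM. Tumor-like nuclei were the higher of these in 5 of 8 tumors. In tumor-like nuclei Cx3cl1 stood at 105, 49.9, 27.3 and 60.1 CPM in the untreated tumors and 28.9, 16.8, 60.8 and 21.8 CPM in the Minnelide tumors. Minnelide tumor 3 lay above untreated tumors 2, 3 and 4, so the groups overlap. Cx3cr1 itself has no row in the files. Cxcl17, a ligand of mucosal surfaces, was the other member with a tumor-like maximum, at 5.57 CPM on 715 UMIs.

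Neutrophil attractants were low. Cxcl1, Cxcl2, Cxcl3 and Cxcl5, all ligands of Cxcr2, had summed UMIs of 904, 108, 15 and 583 over the 8 tumors, and Cxcr2 itself had 141. Cxcl5 was above every other class mean in fibroblast-like nuclei (7.79 ± 4.30 CPM, SD, n = 8), and higher there than in its second class in 8 of 8 tumors. Cxcl9 and Cxcl10, interferon-induced ligands of Cxcr3, came from few nuclei. The 310 UMIs of Cxcl9 lay in 174 nuclei, 1 of which held 75, and the top 10 nuclei held 43.2% of them. The 338 UMIs of Cxcl10 lay in 213 nuclei, with 31.7% in the top 10. Cxcr3, their receptor on T and NK cells, had 41 UMIs in all.

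Members known from lymphoid tissue were low in most tumors. Ccl21a, which guides Ccr7-positive cells along lymphatic vessels, was 19.3, 7.98, 0.283 and 0.665 CPM over all retained nuclei of the untreated tumors and 0.164, 0.226, 0.0272 and 0.116 CPM in the Minnelide tumors. The groups did not overlap, but the gene did not reach the count filter, and near-identical Ccl21 copies in the mouse genome make its counts uncertain. Cxcl13, the B cell attractant that binds Cxcr5, was 24.6 CPM in untreated tumor 1 and 0 to 1.20 CPM in the other 7. Ccl19, the other Ccr7 ligand, had 44 UMIs in all.

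Ccl25 and Ccl28 are ligands of mucosal epithelia. Ccl25 was steady, at 80.1, 77.1, 75.5 and 68.7 CPM without and 85.2, 89.2, 74.3 and 72.4 CPM with Minnelide over all retained nuclei. It overlaps Elavl1 on the opposite strand, a gene measured at 157 ± 12.6 CPM without and 153 ± 5.90 CPM with Minnelide, so its counts are uncertain. Ccr9, its receptor, had 304 UMIs and overlaps Slc6a20a and Lztfl1. Ccl28 had 270 UMIs, with its highest class mean (2.77 CPM) in myocyte-like nuclei.

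Among atypical receptors, Ackr1 and Ackr2 had their highest means in endothelial-like nuclei. Ackr1, known on venules, where it carries inflammatory chemokines across the wall, averaged 11.7 ± 19.7 CPM there, a value set by 59.8 CPM in untreated tumor 1. Ackr2, a scavenger of inflammatory CC ligands known in lymphatic endothelium, averaged 10.5 ± 5.97 CPM. Ackr4, a scavenger of Ccl19, Ccl21 and Ccl25, was highest in fibroblast-like nuclei at 9.15 ± 7.63 CPM (SD, n = 8 for each). Ackr1 overlaps Cadm3 on the same strand, and Ackr4 lies across from Acad11.

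**Figure D2:**
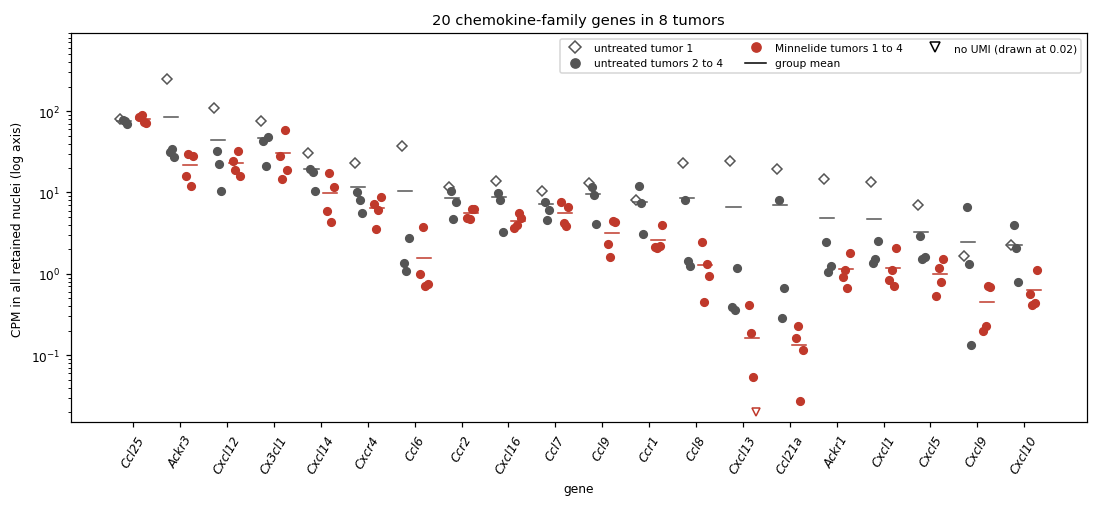
CPM of 20 members in all retained nuclei on a logarithmic axis, with untreated tumor 1 as an open diamond, untreated tumors 2 to 4 in grey, Minnelide tumors in red, group means as bars and a tumor without a UMI drawn at 0.02. Untreated tumor 1 is far above the other 7 tumors for Ackr3 (246 CPM), Ccl6 (36.8) and Cxcl13 (24.6), and Ccl25 lies at 68.7 to 89.2 CPM in the 8 tumors.

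Untreated tumor 1 had the highest level of the 8 tumors for 40 of the 55 members, where 39.6% of the 17527 genes with a UMI had theirs. Ackr3 was 246 CPM there and 12.2 to 34.1 CPM in the other 7 tumors. Ccl6 was 36.8 CPM against 0.707 to 3.76 CPM. Over the 14 clusters of this tumor with a reported level, Ackr3 ranged from 66.9 to 375 CPM, Cxcl12 from 37.5 to 298 CPM and Cxcl13 from 8.73 to 83.2 CPM, so each had UMIs in every one of them. Free RNA gives UMIs in nuclei that do not express a gene, and the 13 myocyte markers summed to 8605 CPM in the fibroblast-like and 13482 CPM in the macrophage-like nuclei of this tumor, against 318 to 5466 CPM and 487 to 8877 CPM in the other 7 tumors. UMIs in every cluster are therefore not read as expression there. Cxcl16 and Ccl6 too had UMIs in every one of the 14 clusters. Cxcl16 ranged from 3.46 to 141 CPM and Ccl6 from 16.1 to 788 CPM, each with its maximum in a macrophage-like cluster. The part of free RNA in these levels was not tested. The summed levels of several marker lists were also high in this tumor over all retained nuclei: the 8 B cell markers summed to 133 CPM there and 3.23 to 8.86 CPM in the other 7, the 17 T/NK markers to 159 against 7.26 to 40.8 CPM, and the 7 lymphatic markers to 956 against 69.2 to 145 CPM. Their part in the members' levels was not tested.

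**Figure D3:**
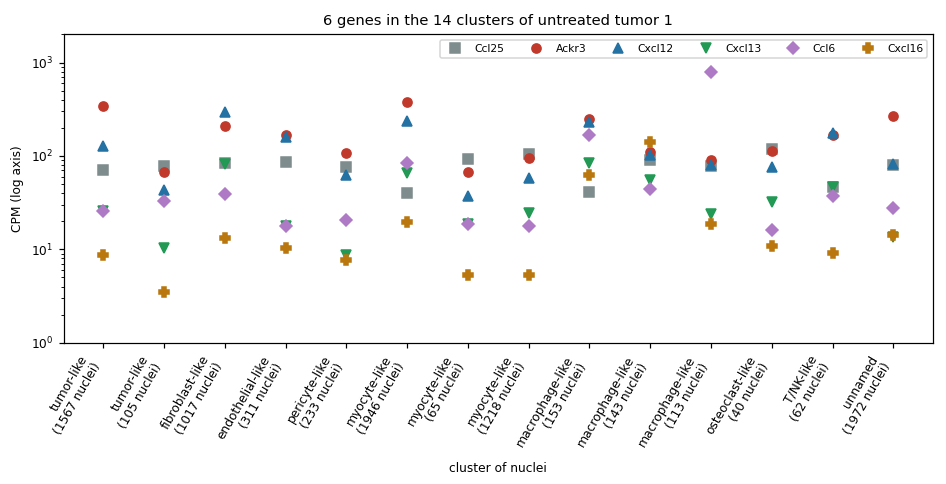
CPM of 6 members on a logarithmic axis in the 14 clusters of untreated tumor 1, each cluster labelled with its class and number of nuclei. Ackr3 lies between 66.9 and 375 CPM, while Cxcl16 ranges from 3.46 to 141 CPM with its highest point in a macrophage-like cluster.

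The question put to the treatment was whether chemokine genes differed between Minnelide and untreated tumors, in all retained nuclei and within classes. In all retained nuclei, no member passed edgeR's quasi-likelihood test after Benjamini-Hochberg adjustment, nor did any of the 13786 genes tested (0%), and DESeq2 called 179 genes (1.3%) with no member among them. Mean CPM was lower with Minnelide for 47 of the 55 members, against 65.4% of all genes with a UMI, and for 37 of the 55, against 56.6%, without untreated tumor 1. Of the 30 members past the count filter, 8 had an unadjusted edgeR p under 0.05 and a lower level with Minnelide, against 7.61% of all genes tested, and 0 had a higher level, against 2.38%. The log2 difference was below 0 for 27 of the 30, against 49.3% of genes. Without untreated tumor 1, 4 of 30 had an unadjusted p under 0.05 (Ccl9, Ccr1, Cxcl9 and Cxcl10), against 8.79% of genes in either direction, and 23 were below 0. The median log2 difference of the 30 was -0.87, against 0.01 for all genes. Without untreated tumor 1 it was -0.43, against 0.03 for all genes. With the 8 tumors, the members below that p were Ccl8, Ccl9, Ccr1, Cxcl1, Cxcl5, Cxcl9, Cxcl10 and Ackr3.

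Ccl9 and Ccr1, a ligand and its receptor, kept their difference without untreated tumor 1. Ccl9 was 13.02, 11.8, 9.23 and 4.06 CPM in the untreated tumors and 2.30, 1.62, 4.43 and 4.31 CPM in the Minnelide tumors, where untreated tumor 4 lies inside the Minnelide range. Its log2 difference was -1.43 ± 0.45 (SE, edgeR adjusted p = 0.468), and -1.31 without untreated tumor 1. Ccr1 was 8.13, 11.9, 7.33 and 3.12 CPM without and 2.15, 2.11, 2.203 and 3.96 CPM with Minnelide, a log2 difference of -1.40 ± 0.42 (edgeR adjusted p = 0.468), and -1.42 without untreated tumor 1. Only untreated tumor 4 and Minnelide tumor 4 overlap. The 10 markers of the osteoclast-like class summed to 542 to 1820 CPM without and 344 to 754 CPM with Minnelide. Both genes had their highest mean in this class. Of its markers, 9 had lower means, and none was at 0 in all tumors. Lower means were common in other lists as well, with 15 of 15 macrophage, 13 of 13 fibroblast and 12 of 12 endothelial markers. They were fewer among pericyte (7 of 11) and tumor markers (1 of 8). Untreated tumor 1, the highest for Ccl9, had an osteoclast marker sum of 603 CPM, against 1820 CPM in untreated tumor 2. The osteoclast-like share was 0.601%, 2.80%, 3.45% and 0.810% of retained nuclei without and 0.354%, 0.543%, 0.540% and 1.88% with Minnelide. The part of marker levels or shares in the result was not tested.

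Cxcl10 was 2.29, 3.99, 2.06 and 0.798 CPM without and 0.558, 0.414, 0.435 and 1.11 CPM with Minnelide. Its log2 difference was -1.74 ± 0.54 (edgeR adjusted p = 0.468) and -1.80 without untreated tumor 1. Cxcl10 lies across from Art3, measured at 47.7 ± 31.5 CPM without and 23.4 ± 11.1 CPM with Minnelide, so its counts are uncertain. Cxcl9 was 1.64, 6.72, 1.34 and 0.133 CPM without and 0.197, 0.226, 0.707 and 0.698 CPM with Minnelide. Untreated tumor 2 set its size, since the log2 difference of -2.31 ± 0.99 became -1.05 without that tumor. In fibroblast-like nuclei of untreated tumor 2, Cxcl9 and Cxcl10 were 38.9 and 20.1 CPM, while the other 7 tumors held at most 2.39 and 4.63 CPM.

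Cxcl5 was the one member past the filter whose groups did not overlap in all retained nuclei, at 6.94, 2.92, 1.54 and 1.596 CPM without and 0.542, 1.17, 0.789 and 1.51 CPM with Minnelide. Among all genes tested, 6.99% were lower without overlap. Its log2 difference was -1.52 ± 0.55, and -0.93 without untreated tumor 1. The differences of Ackr3 (-1.73), Cxcl1 (-1.77) and Ccl8 (-2.47) rested more on that tumor, for they became -0.44, -0.54 and -1.33 without it. Ackr3 in the other tumors was 27.4 to 34.1 CPM without and 12.2 to 30.1 CPM with Minnelide.

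**Figure D4:**
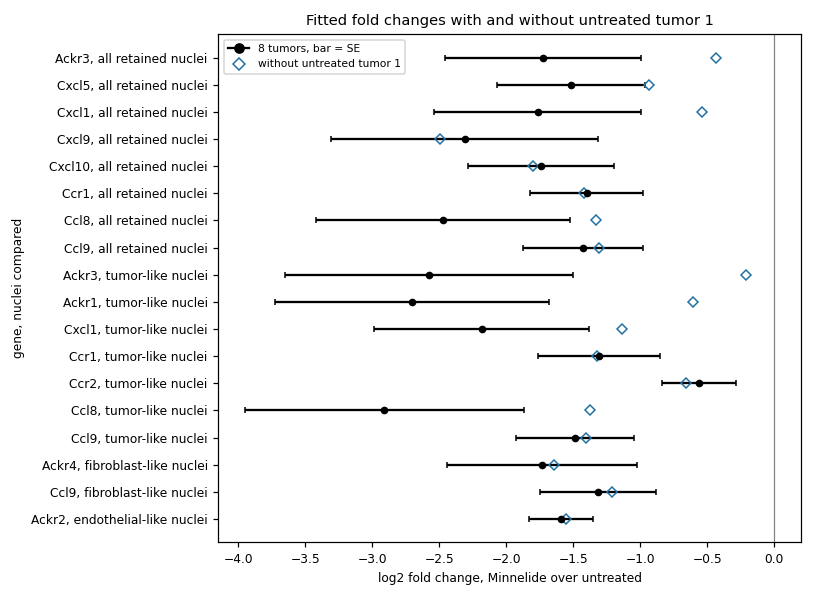
Minnelide minus untreated log2 difference for 18 gene and class pairs, black points with bars of 1 SE for the 8 tumors and blue diamonds without untreated tumor 1. The diamonds for Ackr3 (-0.44 in all retained and -0.21 in tumor-like nuclei) lie near 0, while those for Ccl9, Ccr1, Cxcl10 and Ackr2 lie close to the black points.

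In tumor-like nuclei, 0 of 23 members past the filter were called by edgeR after adjustment, as was 0% of the 12910 genes tested, and 0 by DESeq2, which called 45 genes (0.349%). Unadjusted edgeR p was under 0.05 with a lower level for 6 members (Ackr1, Ackr3, Ccl8, Ccl9, Ccr1 and Cxcl1), against 4.81% of all genes, and 0 had a higher level, against 1.36%. The log2 difference was below 0 for 20 of the 23, against 49.4%. Without untreated tumor 1, 3 of 25 members (Ccl9, Ccr1 and Ccr2) had an unadjusted p under 0.05, against 5.75% of genes in either direction. The median log2 difference of members went from -0.76 to -0.41, and that of all genes from 0.01 to 0.04. Ccl9 was 10.3, 9.79, 7.99 and 4.36 CPM without and 1.99, 1.20, 3.64 and 3.71 CPM with Minnelide, groups that do not overlap, with a log2 difference of -1.49 ± 0.44 (edgeR adjusted p = 0.763) and -1.40 without untreated tumor 1. Groups also did not overlap for Ccr2, at 5.61, 7.22, 4.54 and 9.29 CPM without and 3.85, 4.39, 4.35 and 3.99 CPM with Minnelide. Lower values without overlap occurred in 4.57% of all genes. Ccr1 was 5.09, 8.81, 3.54 and 1.90 CPM without and 1.68, 1.98, 1.85 and 1.67 CPM with Minnelide, and its log2 difference of -1.31 became -0.77 without untreated tumor 2.

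Ccl9 and Ccr1 belong to myeloid cells, and myeloid markers were present in tumor-like sums. The 10 osteoclast markers summed to 386 to 1454 CPM without and 296 to 576 CPM with Minnelide in tumor-like nuclei, 8 of 10 with lower means, and the 15 macrophage markers to 259 to 698 CPM and 219 to 360 CPM. Their part was not tested. The tumor-like differences of Ackr3 (-2.58), Ackr1 (-2.70), Cxcl1 (-2.18) and Ccl8 (-2.91) became -0.21, -0.61, -1.14 and -1.37 without untreated tumor 1, where Ackr3 stood at 313 CPM and Ackr1 at 19.5 CPM. Of its 1677 tumor-like nuclei, 1567 lay in 1 cluster, and the 12 endothelial markers summed to 4541 CPM in its tumor-like nuclei, against 465 to 782 CPM in the other 7 tumors, and the 7 lymphatic markers to 1179 against 56.6 to 121 CPM. Their part in these differences was not tested. When clusters that also held markers of a second class were left unnamed, which dropped untreated tumor 1 from the class, 0 of 19 members had an unadjusted edgeR p under 0.05, against 8.77% of 12571 genes, and the median log2 difference was -0.22 instead of -0.76.

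In macrophage-like nuclei 8 members passed the filter, and 0 had an unadjusted edgeR p under 0.05 in either direction, against 1.7% of 6939 genes lower and 1.61% higher. DESeq2 called 0 genes. No member was lower without overlap, against 1.08% of genes, and 4 of the 8 log2 differences were below 0, against 52.4%, with a median of 0.05. Ccr2 differed by 0.69 ± 0.40 (SE, 95% interval -0.10 to 1.48) and Cxcl16 by -0.01 ± 0.33 (-0.66 to 0.64), so the intervals leave room for differences in either direction. Ccr2 without Minnelide tumor 1 came under an unadjusted edgeR p of 0.05, as did 1.90% of genes in either direction. So did Ccl6 without untreated tumor 2 (6.62% of genes) or 3 (3.64%) and Cxcl12 without untreated tumor 4 (3.56%). Ccl9 did with doublets kept (5.69%), and 5 of 49 members did without the count filter (4.37%).

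In fibroblast-like nuclei 13 members passed the filter and 2, Ccl9 and Ackr4, had an unadjusted edgeR p under 0.05 with a lower level, against 3.99% of 11272 genes, and 0 had a higher level, against 3.97%. No member was lower without overlap, against 3.26%, and 10 of the 13 log2 differences were below 0, against 51.3%. Neither edgeR nor DESeq2 called a member after adjustment, while DESeq2 called 56 genes (0.497%). Ccl9 was 11.9, 10.4, 10.4 and 3.74 CPM without and 4.94, 1.55, 4.21 and 3.59 CPM with Minnelide, a log2 difference of -1.32 on 36 UMIs in the Minnelide group. Ackr4 was 18.8, 18.8, 15.2 and 1.25 CPM without and 3.02, 2.71, 2.68 and 10.8 CPM with Minnelide, so each group held 1 tumor at the level of the other. The median log2 difference of the 13 members was -0.54, and 0.06 without untreated tumor 1, where 6 of the 13 were below 0. In that fit 2 of 13 members, Ccl9 and Ccr2, were under that p in either direction, against 10.5% of 11241 genes.

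Ackr2 in endothelial-like nuclei was the 1 member that DESeq2 called in any comparison. It was 18.3, 16.5, 15.4 and 13.4 CPM in the untreated tumors and 4.54, 4.12, 6.005 and 5.56 CPM in the Minnelide tumors, on 78 and 79 UMIs, of which Minnelide tumors 2 and 3 held 3 and 9. The lowest untreated tumor lay above the highest Minnelide tumor, and the spread within each group was small beside the gap. The log2 difference was -1.59 ± 0.24 (SE), with an edgeR adjusted p of 0.281 and a DESeq2 adjusted p of 0.00249, so the tools disagree on the call, and the adjusted p ran from 0.00249 to 0.803 over the alternatives. It was the 1 member among 7 past the filter with an unadjusted edgeR p under 0.05, against 8.5% of 9724 genes lower, and 0 members were higher, against 7.56%. Without overlap, 4.68% of genes were lower, and DESeq2 called 120 genes (1.23%). The log2 difference was below 0 for 6 of the 7 members, against 53.4%. Without untreated tumor 1 the difference was -1.55. Over the 13 alternatives with a fit for Ackr2 it ran from -1.65 to -0.93. With clusters formed at resolution 0.5, Ackr2 was not among the 6 members past the filter and had no fit, so that setting says nothing on Ackr2. Of those 6 members, 0 had an unadjusted edgeR p under 0.05, against 6.25% of genes.

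The endothelial-like class differed between the groups in other ways. Its 7 lymphatic markers, all detected, summed to 1400, 323, 192 and 297 CPM without and 95.5, 144, 108 and 99.4 CPM with Minnelide, and 7 of 7 had lower means. Its 8 tumor markers summed to 2059 to 7019 CPM without and 5967 to 17121 CPM with Minnelide, and its 12 endothelial markers to 6429 to 9545 CPM and 1773 to 7494 CPM. Minnelide tumors 1 and 4 had the lowest endothelial marker sums, 1773 and 3076 CPM, and the highest tumor marker sums, 17121 and 11853 CPM. The part of these marker levels in the Ackr2 result was not tested. Over all retained nuclei Ackr2 was 6.87, 2.68, 2.55 and 5.72 CPM without and 2.77, 0.790, 2.58 and 3.14 CPM with Minnelide, groups that overlap.

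**Figure D5:**
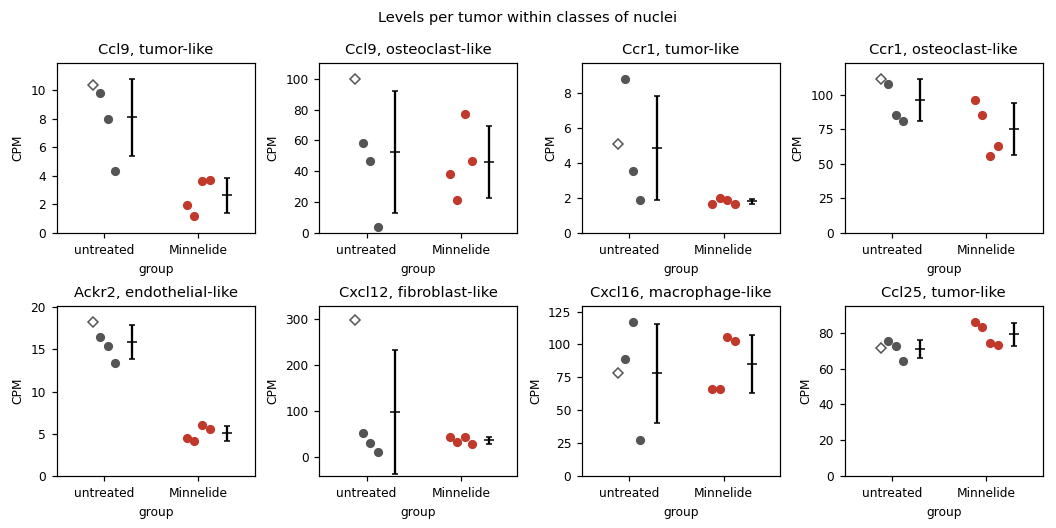
CPM per tumor of 6 members within named classes, 8 panels, with untreated tumor 1 as an open diamond, other untreated tumors in grey, Minnelide tumors in red and bars for the group mean and SD (n = 4 per group). Ackr2 in endothelial-like nuclei is 13.4 to 18.3 CPM without and 4.12 to 6.005 CPM with Minnelide, while Cxcl16 in macrophage-like nuclei overlaps between the groups.

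Whether the difference between the groups itself differed between classes was tested with tumor as a block. Between tumor-like and fibroblast-like nuclei, 0 of 31 members passed after adjustment by edgeR (0% of genes) or DESeq2 (0.379%), and 5 had an unadjusted edgeR p under 0.05, against 7.19% of 13179 genes. The difference with Minnelide was lower in tumor-like than in fibroblast-like nuclei for Cxcl5, Cx3cl1 and Ccr2 (5.12% of genes) and higher for Ccl25 and Ackr4 (2.06%). Between tumor-like and macrophage-like nuclei the counts were 0 by edgeR (0%) or DESeq2 (0.00772%) and 9 of 33 unadjusted, against 5.19% of 12958 genes. The difference with Minnelide was lower in tumor-like nuclei for all 9 and higher for 0, against 4.05% and 1.13% of genes. Without untreated tumor 1 these were 4 of 32 (Ccl8, Ccr2, Cx3cl1 and Cxcl13), against 3.78% of genes in either direction. The members with the smallest p and enough UMIs in each class and group, chosen after their values were seen, were Cx3cl1, Cxcl5 and Ccl8. For Cx3cl1 the difference was -0.75 in tumor-like, 0.06 in fibroblast-like and 0.22 in macrophage-like nuclei, and the tumor-like value was lower than the fibroblast-like by 0.89 ± 0.21 on the log2 scale (edgeR adjusted p = 0.464, DESeq2 adjusted p = 0.0575). In fibroblast-like nuclei Cx3cl1 was 62.3, 27.5, 15.7 and 23.1 CPM without and 36.8, 19.0, 51.3 and 17.9 CPM with Minnelide. Cxcl5 differed by -2.52 between tumor-like and fibroblast-like nuclei (-1.81 without untreated tumor 1), and Ccl8 by -1.89 between tumor-like and macrophage-like nuclei.

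Genes that act below the receptors or switch chemokines on were counted from lists chosen with earlier results of these data known. Of 67 measured genes of receptor signaling (G proteins, kinases, arrestins, regulators of G protein signaling and others), 13 had an unadjusted edgeR p under 0.05 with a lower level in all retained nuclei and 0 with a higher level, against 7.61% and 2.38% of all genes, with a median log2 difference of -0.22 against 0.01. They included Plcb2, Rgs2, Rgs16, Rgs18, Fgr, Lyn and Vav1, several of which are leukocyte genes. Of 32 tested cytokines, cytokine receptors and transcription factors known to induce chemokines, 14 were lower at that p and 0 higher, with a median of -0.72. edgeR called none of either list after adjustment, and DESeq2 called Plcb2, Lyn, Fgr and Vav1 of the first and Csf1, Il4ra, Il13ra1 and Il17ra of the second, against 1.3% of all genes. In counts simulated for this comparison, DESeq2 made 56 false calls and edgeR 2.

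Csf1, the growth factor of macrophages and osteoclasts, was 75.0, 52.4, 60.03 and 36.3 CPM without and 18.8, 18.0, 20.6 and 20.1 CPM with Minnelide, a log2 difference of -1.37 ± 0.19 (edgeR adjusted p = 0.427). Il4ra, the receptor chain for interleukins that induce Ccl8, Ccl17 and Ccl24, was 51.1, 44.8, 62.7 and 42.5 CPM without and 21.6, 22.9, 21.8 and 20.2 CPM with Minnelide. The groups do not overlap for Csf1 or Il4ra. In endothelial-like nuclei 14 of 26 tested inducers were lower at an unadjusted edgeR p under 0.05, and of 55 tested signaling genes 7 were lower and 2, Grk3 and Tiam1, were higher, against 8.5% of all genes lower and 7.56% higher. In tumor-like nuclei the counts lower were 7 of 31 inducers and 6 of 66 signaling genes, against 4.81% of all genes. In fibroblast-like nuclei they were 4 of 28 and 3 of 57 with Vav3 higher, against 3.99%, and in macrophage-like nuclei 2 of 26 (Il6ra and Irf8) and 1 of 54, against 1.7%. The signaling counts of the fibroblast-like and macrophage-like nuclei lie near the share of all genes.

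By position in GRCm39, 26 of the 55 members lay in 5 groups of at least 3 members with gaps under 500 kb. On chromosome 11, chr11:81926397-82196516 holds Ccl2, Ccl7, Ccl11, Ccl12, Ccl8 and Ccl1, and chr11:83416602-83555509 holds Ccl5, Ccl9, Ccl6, Ccl3 and Ccl4. Neighbors did not all have their highest mean in the same class. Within the first group, Ccl2, Ccl8 and Ccl12 had their highest mean in macrophage-like nuclei and Ccl7 in fibroblast-like nuclei. Ccl2 was higher in macrophage-like than in fibroblast-like nuclei in only 4 of 8 tumors. Within the second, the highest mean was osteoclast-like for Ccl9 and macrophage-like for Ccl6, but the order of Ccl9 over these 2 classes lies within its spread. The group on chromosome 9, chr9:123507181-123947736, holds 7 receptors, of which Ccr1 and Ccr3 were highest in osteoclast-like and Ccr2 in macrophage-like nuclei. In the CXC group of chromosome 5, chr5:90907186-91053797, Cxcl1 and Cxcl5 were both highest in fibroblast-like nuclei. In all, 9 members overlap another measured coding gene, so their counts are uncertain.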

How the data were processed

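The authors made the deposited raw UMI counts per gene and nucleus with Cell Ranger, version 9.0.1 per the file headers and 7.0.1 per the labels, after bcl2fastq 2.20, on mm39. The annotation and the strand setting are not given in the sources used here. The 8 matrices were taken as tumors and numbered in listed order, and 0 columns of per-sample values were left unused.

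Nuclei with under 200 genes or a posterior over 0.75 of being damaged, from a mixture model of mitochondrial share on genes detected, were removed, then doublets at 0.8% per 1000 nuclei by simulated neighbors. Counts on 2000 variable genes, without members or markers, gave 30 components and Leiden clusters at resolution 1.0 (scanpy 1.11.5, igraph 0.11.9). The rule that names clusters was revised after clusters and class sizes were seen, but before any member's level or test. A class kept tumors with at least 20 nuclei. Summed counts were compared with edgeR 4.0.16 (R 4.3.3: TMM, filterByExpr, quasi-likelihood test, two-sided, Benjamini-Hochberg over all genes tested, threshold 0.05), and DESeq2 1.42.0 was an alternative. Intervals are at 95%. An exact permutation test of 4 against 4 tumors cannot go below p = 0.0286. In counts simulated for all retained nuclei (13786 genes), edgeR recovered 4% of genes changed by 1 log2 unit and 51% of those changed by 2, with 2 false calls, and DESeq2 27% and 84%, with 56.

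The family and the gene lists were chosen with earlier results of these data known, and its members then by symbol. Members were named where they were among the 12 highest by mean CPM, among the 3 highest of a class, below an unadjusted edgeR p of 0.05, called by DESeq2 or without overlap between groups, or where 1 tumor held at least 50% of the summed CPM. Other alternatives were library-size scaling, no count filter, doublets kept, resolution 0.5, stricter naming and leaving out each tumor. p-values measure the spread between these tumors. Some genes are not reported here, and counts over members and lists include them.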

Additional observations from a re-analysis of the deposited data

Results flagged for a closer look

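Among 33 named members, 66 groups of 4 tumors were examined in all retained nuclei for a tumor separated from its nearest neighbor by most of the range of its group (95% critical value of Dixon), and 13 such values were found. Chance gives about 1 in 20 groups for genes not chosen by their values, and that rate does not apply here, because members were named partly where 1 tumor held at least 50% of their summed CPM. Of the 13, 10 were high values in untreated tumor 1, in members that all met that criterion. Atypical receptors gave 246 CPM for Ackr3 and 14.7 CPM for Ackr1. Ligands gave 36.8 CPM for Ccl6, 24.6 for Cxcl13, 13.3 for Cxcl1, 2.96 for Ccl5, 2.90 for Ccl11, 1.34 for Cxcl2 and 0.406 for Xcl1, and the receptor Cxcr5 gave 2.56 CPM. The other 3 were Ccl6 in Minnelide tumor 2 (3.76 CPM), Ccr1 in Minnelide tumor 4 (3.96 CPM) and Cxcr3 in Minnelide tumor 2, which held 0 UMIs.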

How the results depend on the processing

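With DESeq2 in place of edgeR, the genes called after adjustment went from 0 to 179 in all retained, 45 in tumor-like, 56 in fibroblast-like and 120 in endothelial-like nuclei, and to 50 and 1 for the differences of tumor-like from fibroblast-like and from macrophage-like nuclei. Members called went from 0 to 1, which was Ackr2 in endothelial-like nuclei (log2 difference -1.57). In fibroblast-like nuclei 1 gene was called with doublets kept, and 0 to 2 when each tumor was left out, the 2 without untreated tumor 1. Of 311 recomputed log2 differences of named members, 310 kept direction and side of the threshold. That count is no measure of stability, since edgeR called 0 genes at the start and these members were picked from the same data. Sizes did move: the log2 difference of Ackr3 in tumor-like nuclei ran from -2.96 to -0.21 over the alternatives. Library-size scaling moved the median of all genes by -0.15 in all retained and -0.13 in tumor-like nuclei, and 10 and 8 members were then under an unadjusted p of 0.05, against 12.8% and 8.02% of genes, where TMM gave 8 and 6, against 9.99% and 6.17%. Stricter naming could not be fitted for macrophage-like nuclei, endothelial-like nuclei or the difference of tumor-like from macrophage-like nuclei. The labels do not pair the tumors. Over 13122 genes, deviations from the group means of tumors with the same barcode set correlated at -0.42 to 0.02, so the set was not taken as a pairing. A replicate block on it, chosen after seeing the data, left 0 genes and 0 members called in each of the 5 comparisons. Members under an unadjusted edgeR p of 0.05 went from 8 to 1 (Ccl9) in all retained nuclei, and genes from 9.99% to 4.79%. In tumor-like nuclei members went from 6 to 3 (genes 6.17% to 3.26%), and in fibroblast-like nuclei from 2 to 1 (7.97% to 6.45%). With the block, the member shares in all retained (3.33%) and fibroblast-like nuclei (7.69%) lie near those of all genes. Depth limits members under 100 UMIs, and untreated tumor 4 was the shallowest. Why these values moved was not tested.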

Other observations

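T/NK-like nuclei reached the minimum of 20 only in untreated tumor 1, where 62 nuclei held 108427 UMIs, so their levels have no replicate. Cxcr4 had 11 UMIs there (101 CPM, exact Poisson 95% interval 50.6 to 182), Cxcr6 6 (55.3 CPM, 20.3 to 120) and Ccl5, a ligand of cytotoxic lymphocytes, 4 (36.9 CPM, 10.1 to 94.5), intervals that cover counting error only. Ackr3 had 18 UMIs (166 CPM, 98.4 to 262) in these nuclei, within its range of 66.9 to 375 CPM over the clusters of this tumor, so this level is not read as expression by them.

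Related genes whose symbols lie outside the rule were measured too. Gpr182, an endothelial chemokine scavenger, was 15.2, 1.02, 0.688 and 0.798 CPM in the untreated tumors and 0.542, 0.339, 0.571 and 0.815 CPM in the Minnelide tumors, over all retained nuclei. Pf4, the platelet and macrophage chemokine also called Cxcl4, was 13.1, 2.53, 0.890 and 1.53 CPM without and 2.86, 1.47, 1.25 and 0.407 CPM with Minnelide. Both were highest in untreated tumor 1. Cmklr1, the chemerin receptor, was 18.1 to 23.3 CPM without and 10.6 to 19.7 CPM with Minnelide.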
